A study of Mus musculus with 6 samples.

Results

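The 10 genes described here are a macrophage set: Retnla, the 3 chains of complement C1q (C1qa, C1qb and C1qc), and the macrophage genes Cd163, Mrc1, Csf1r, Emr1 (now Adgre1), Folr2 and Cd68. They were found by exact gene symbol among 28853 probe sets of a mouse gene array, and each had 1 probe set. All 10 were bright enough to be tested. The set was put together with the difference between the genotypes already known, so the changes of its members are given as a description and carry no test.

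The arrays measured mammary cells of pregnant mice with a floxed insulin receptor gene. The tested mice, IRfl/fl Cre+ (animals 5, 6 and 7), also carried Cre recombinase under the BLG promoter, which comes from a milk protein gene and is active in secretory mammary epithelium. Their controls, IRfl/fl Cre- (animals 1, 2 and 4), had the same floxed alleles and no Cre. All females had been mated to CD1 males, cells were released with collagenase on day 13.5 of pregnancy, and 1 array was run per animal. The ages of the mice are not given in the labels. The labels call the cells mammary alveolar cells, yet a collagenase preparation can hold other cells, and macrophage transcripts were measured on every array.

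Macrophages lie around the ducts and alveoli of the mammary gland, where they clear dying cells and take part in the growth and regression of the epithelium. C1q is the recognition molecule of the classical complement pathway. Its 3 chains are encoded by neighbouring genes and are assembled together, and in most tissues macrophages are its main source. Retnla encodes RELM-alpha, a small secreted protein of the resistin family that interleukin 4 and interleukin 13 induce in macrophages through STAT6, a state known as alternative activation. Other cells, in lung and adipose tissue among others, can also make it.

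The proximal promoters of the genes that differed most are shown because the inducing pathway of Retnla is known and because C1qb and C1qc differed to a similar degree. Sequences are the 250 bases before the annotated start, from RefSeq on GRCm38.p6, and 7 of the 10 members had an entry. Retnla lies at chr16:48842359-48842608 on the plus strand, and its neighbour Retnlg, another resistin-like gene, at chr16:48872358-48872607 on the plus strand. C1qb lies at chr4:136886201-136886450 and C1qc at chr4:136892915-136893164, both on the minus strand. Capitals mark matches on either strand to TTC and GAA with 4 bases between them (a STAT6-type site), TTGCNNAA (a C/EBP-type site) or AGGAAGT (an Ets-type site, the class bound by the macrophage factor PU.1).
Retnla: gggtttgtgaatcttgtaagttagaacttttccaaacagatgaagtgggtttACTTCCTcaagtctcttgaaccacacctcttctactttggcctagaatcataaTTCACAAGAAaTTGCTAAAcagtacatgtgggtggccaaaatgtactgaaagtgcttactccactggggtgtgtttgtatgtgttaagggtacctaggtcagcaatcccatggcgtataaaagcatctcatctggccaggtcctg
Retnlg: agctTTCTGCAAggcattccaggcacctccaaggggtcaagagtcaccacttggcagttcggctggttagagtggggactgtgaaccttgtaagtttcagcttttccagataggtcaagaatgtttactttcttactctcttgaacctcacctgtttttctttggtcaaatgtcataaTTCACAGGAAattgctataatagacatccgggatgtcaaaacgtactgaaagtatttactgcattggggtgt
C1qb: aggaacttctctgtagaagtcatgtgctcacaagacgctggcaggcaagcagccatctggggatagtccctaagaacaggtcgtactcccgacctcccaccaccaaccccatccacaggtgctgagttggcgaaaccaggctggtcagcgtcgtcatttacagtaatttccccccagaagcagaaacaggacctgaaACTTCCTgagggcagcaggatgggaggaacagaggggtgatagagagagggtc
C1qc: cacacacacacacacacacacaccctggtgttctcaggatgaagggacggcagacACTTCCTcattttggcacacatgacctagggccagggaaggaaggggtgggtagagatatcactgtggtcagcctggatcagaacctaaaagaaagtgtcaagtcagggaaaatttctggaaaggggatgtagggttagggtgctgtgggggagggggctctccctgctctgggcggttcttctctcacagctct
Counted back from the start, the Retnla window had the STAT6-type letters from position -145, followed without overlap by the C/EBP-type letters from position -134. It also had an Ets-type match from position -198. The STAT6-type letters stood in 5.85% of all 32851 promoter windows of this length, the C/EBP-type letters in 9.56% and the Ets-type letters in 7.69%. Among the 7 members with an entry, only Retnla held the STAT6-type letters. The C1qb and C1qc windows each had 1 Ets-type match, from position -53 and position -195. Members that differed less held such letters too, with an Ets-type match in Mrc1 (position -211), a pair of them in 1 of the windows of Folr2 and a C/EBP-type match in Cd68 (position -43). The windows of Retnla and Retnlg were 78.9% identical over 175 aligned bases, and the Retnlg window also held the STAT6-type letters. Such matches describe the letters of these windows and show no binding.

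Intensities are RMA values, which put the arrays on a common scale. They are given on the linear scale, where probe sets with a mean under 22.4 were left untested as dim and the lowest value on any array was 18.7. Array medians were between 28.4 and 29.3. The first principal component (43.4% of the variance) separated the genotypes. On the second (33.6%), Cre+ 7 (score 13.7) and Cre- 1 (21.1) lay far from the remaining 4, whose scores ran from -14.6 to -3.06. Insr, the targeted gene, had intensities of 55.2, 47.7 and 71.2 in Cre+ cells, against 106, 104 and 122 in Cre- cells. It fell by 0.95 (SE 0.15) on the log2 scale with limma adjusted p = 0.0231, and by 0.52 (SE 0.09, adjusted p = 0.0285) at its other probe set. With an array left out, the adjusted p at the first probe set was above 0.05 for 4 of the 6 omissions, at 0.0909 for Cre+ 5, 0.0782 for Cre+ 6, 0.0785 for Cre- 2 and 0.0602 for Cre- 4. The position of these probes relative to the floxed part is not given in the sources used here.

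Retnla had intensities of 180, 99.5 and 167 in Cre+ cells, against 60.9, 28.2 and 29.6 in Cre- cells. In such bulk samples, fewer cells of a type and less RNA per cell cannot be told apart. Every Cre+ array was above every Cre- array, and Cre- 2 and Cre- 4 were close to the bottom of the array's range. The log2 level averaged 7.17 ± 0.47 in Cre+ cells and 5.21 ± 0.62 in Cre- cells (SD, n = 3 each), a difference of 1.96 (SE 0.33), or 3.90-fold. The authors' deposited table gives a ratio of 3.77. The difference was 2.21 without Cre+ 7 and Cre- 1 together, and it lay between 1.77 and 2.32 when any 1 array was left out. With 16 taken off each intensity before log2, to allow for a constant that may have been added to the values, it was 2.71. Since the Cre- levels are dim, the size of the fold depends on that choice.

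The C1q chains B and C were also higher in Cre+ cells. C1qb had intensities of 112, 97.2 and 126 in Cre+ cells, against 75.7, 76.6 and 57.5 in Cre- cells. C1qc had 202, 181 and 189 in Cre+ cells, against 130, 127 and 87.1 in Cre- cells. In both, the groups did not overlap. The log2 difference was 0.68 (SE 0.14) for C1qb, 1.6-fold, and 0.75 (SE 0.16) for C1qc, 1.69-fold. C1qa, the third chain, had intensities of 193, 152 and 164 in Cre+ cells, against 171, 172 and 102 in Cre- cells. Here the groups overlapped, 2 of the 3 Cre- arrays were level with the Cre+ arrays, and the log2 difference was 0.23 (SE 0.21). Without Cre- 4 it was -0.02 for C1qa, 0.54 for C1qb and 0.57 for C1qc. Without Cre- 1 it was 0.35, 0.74 and 0.86 in the same order.

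**Figure D1:**
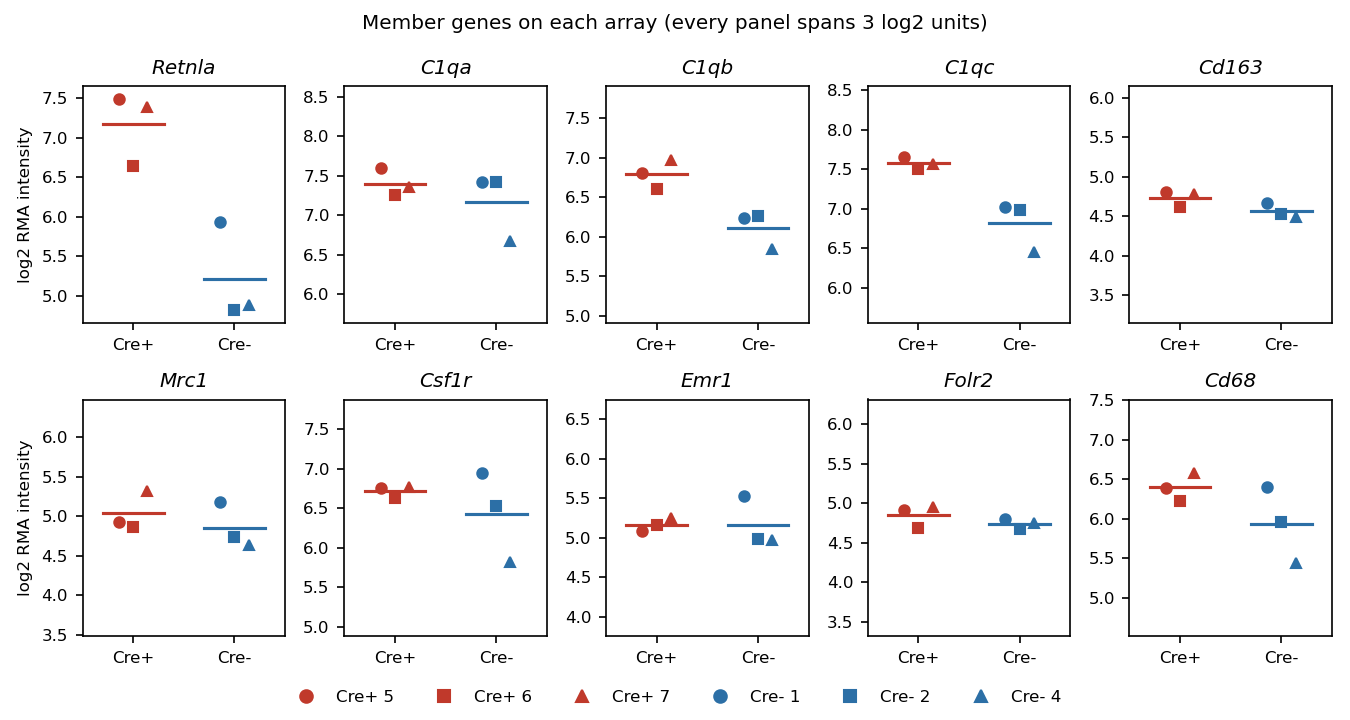
Log2 RMA intensity of the 10 member genes on each of the 6 arrays, with Cre+ left and Cre- right in every panel, a symbol per animal and a line at the group mean. Every panel spans 3 log2 units. Retnla, C1qb and C1qc have no overlap between the groups, and Cre- 4 has the lowest point of 8 of the 10 genes.

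The lineage genes of macrophages differed less. Csf1r, the receptor for the growth factor that macrophages need to survive, had intensities of 108, 98.7 and 109 in Cre+ cells, against 123, 92.1 and 56.2 in Cre- cells. The 3 Cre+ arrays were close to each other, while the Cre- arrays spanned more than the whole Cre+ range on either side. Its log2 difference was 0.29 (SE 0.25) and became -0.01 without Cre- 4, but 0.55 without Cre- 1. Cd68, a glycoprotein of macrophage lysosomes, had 83.7, 74.7 and 95.7 in Cre+ cells, against 84.9, 62.2 and 43.4 in Cre- cells. Its difference was 0.46 (SE 0.23), 0.21 without Cre- 4 and 0.70 without Cre- 1, where that of C1qb was 0.74. Emr1, the F4/80 antigen used to stain mouse macrophages, had 33.9, 36.0 and 38.1 in Cre+ cells, against 46.3, 31.7 and 31.4 in Cre- cells. Its difference was 0.00 (SE 0.15), and its highest array was Cre- 1, without which the difference was 0.19.

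The markers of resident, CD206-positive macrophages were dim on these arrays. Mrc1, the mannose receptor CD206, had intensities of 30.5, 29.3 and 40.1 in Cre+ cells, against 36.4, 26.6 and 24.8 in Cre- cells, a log2 difference of 0.19 (SE 0.17). Cd163, the scavenger receptor for haemoglobin bound to haptoglobin, had 28.0, 24.5 and 27.5 in Cre+ cells, against 25.4, 23.1 and 22.6 in Cre- cells, a difference of 0.17 (SE 0.06). Folr2, a folate receptor carried by resident macrophages, had 30.2, 25.7 and 31.0 in Cre+ cells, against 27.9, 25.4 and 26.8 in Cre- cells, a difference of 0.12 (SE 0.08). All 3 overlapped between the groups. With 16 taken off first, the difference was 0.43 for Mrc1, 0.47 for Cd163 and 0.26 for Folr2, so at these levels its size rests on the scale. Csf1r, Cd68 and the C1q chains were thus well above the dim limit on every array, and the resident markers close to it.

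In the fit across all 16921 tested probe sets (limma, Benjamini-Hochberg adjusted p under 0.05), 3 of the 10 members, Retnla, C1qb and C1qc, passed as higher and 0 as lower. The background share was 2.03% higher and 4.17% in either direction. The groups did not overlap, with Cre+ higher, for the same 3 members, where the background was 12.9%. Since the members were chosen from this contrast, nothing is read from these counts. Without Cre+ 5, Cre+ 6, Cre+ 7 or Cre- 2, 0 members passed, and without Cre- 4 only C1qc did. The difference was above 0 for all 10 members with all arrays, against 51.6% of tested probe sets. It was above 0 for 7 of them without Cre- 4, with C1qa, Csf1r and Emr1 then below 0, and for 9 without Cre+ 7 or Cre- 2 and with median centring, Emr1 being the exception each time. The median difference was 0.26 over the members and 0.00 over all tested probe sets.

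**Figure D2:**
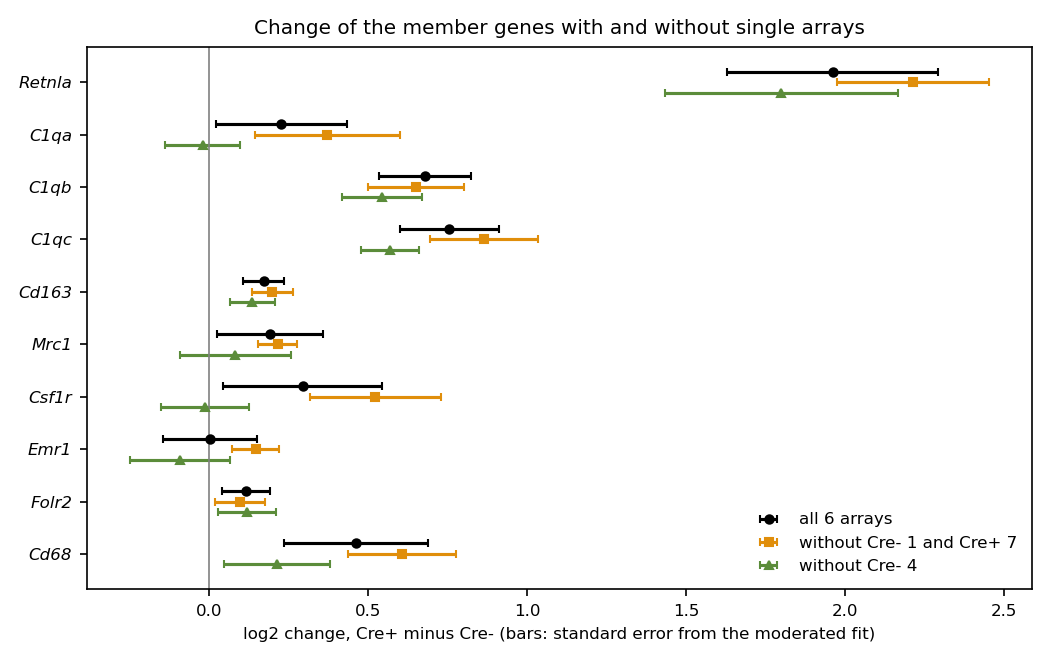
Log2 change of each member, Cre+ minus Cre-, with bars for its standard error, from all 6 arrays (black), without Cre+ 7 and Cre- 1 (orange) and without Cre- 4 (green). Retnla, C1qb and C1qc are far from 0 in all 3 fits, at 1.80, 0.54 and 0.57 without Cre- 4, while C1qa, Csf1r and Emr1 lie at or below 0 without that array. Without Cre+ 7 and Cre- 1, Csf1r and Cd68 lie at 0.52 and 0.61, beside 0.65 for C1qb.

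Much of the variation lay between animals of 1 genotype. Among the Cre+ arrays, Cre+ 6 had the lowest value of 9 of the 10 members and Cre+ 7 the highest value of 6. Among the Cre- arrays, Cre- 1 had the highest value of 8 members and Cre- 4 the lowest of 8. Log2 values were therefore subtracted within an array, to lessen the swing that members share between animals. The subtraction did not always narrow the spread. On the Cre- arrays the SD was 0.23 for C1qb and 0.37 for C1qb minus Csf1r. For C1qc it was 0.32, and 0.28 for C1qc minus Csf1r. Csf1r itself had an SD of 0.57 there, which differences from it carry. The sign of such a difference carries no meaning, because probe sets respond differently. How it compares between groups describes unequal change of the probe sets. The members were chosen from this contrast, so these differences carry no test. How often other pairs of probe sets separate the groups was not examined. For single probe sets, the share without overlap and with Cre+ higher was 12.9%.

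The probe sets of the C1q chains differed between the groups by unequal amounts. C1qc minus C1qa was 0.06, 0.25 and 0.21 on the Cre+ arrays, against -0.39, -0.44 and -0.23 on the Cre- arrays. The groups did not overlap, and their means differed by 0.53. C1qb minus C1qa was -0.79, -0.65 and -0.38 on the Cre+ arrays, against -1.17, -1.17 and -0.83 on the Cre- arrays, a difference of 0.45 between the means, again without overlap. C1qc minus C1qb was 0.78 ± 0.17 on the Cre+ arrays and 0.70 ± 0.09 on the Cre- arrays (SD, n = 3 each), so these 2 chains overlapped between the groups. C1qa minus Csf1r likewise differed by only -0.07 between the groups, with 0.68 ± 0.14 in Cre+ cells and 0.75 ± 0.24 in Cre- cells. Between the group means, the shift of C1qa was thus close to that of Csf1r, and the shifts of C1qb and C1qc were close to each other. Between animals of 1 genotype the chains were not divided in this way. With each group centred on its mean, r over the 6 arrays was 0.986 for C1qa with C1qc, 0.884 for C1qa with Csf1r, 0.94 for C1qc with Csf1r and 0.819 for C1qb with C1qc, as a description of arrays that share their preparations. All 3 chains are single probe sets, and probe sequences were not examined.

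**Figure D3:**
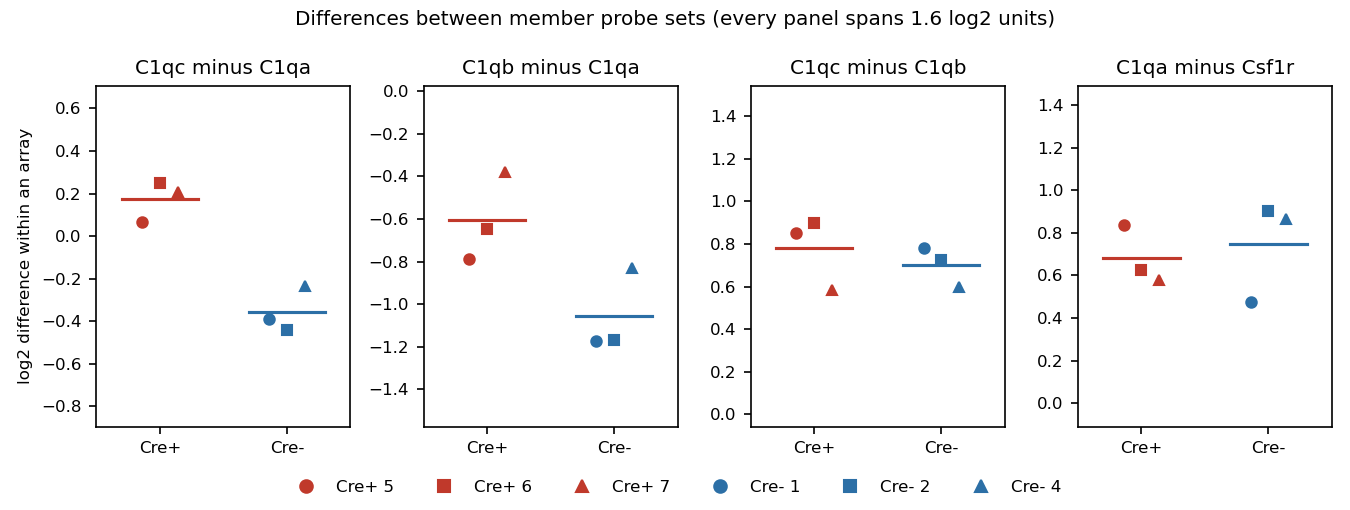
Differences of log2 intensity between pairs of member probe sets within each array, with Cre+ left and Cre- right, a symbol per animal and a line at the group mean. Every panel spans 1.6 log2 units. C1qc minus C1qa and C1qb minus C1qa have no overlap between the groups, while C1qc minus C1qb and C1qa minus Csf1r overlap.

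Set against Csf1r in the same way, Retnla was at 0.74, 0.01 and 0.61 on the Cre+ arrays, against -1.01, -1.71 and -0.93 on the Cre- arrays. The groups did not overlap, and the means differed by 1.67. C1qc minus Csf1r was 0.90, 0.88 and 0.79 on the Cre+ arrays, against 0.09, 0.46 and 0.63 on the Cre- arrays, a difference of 0.46 without overlap. C1qb minus Csf1r differed by 0.38 and C1qc minus Cd68 by 0.29, and in both the groups overlapped. Cd68 minus Csf1r differed by 0.17 and overlapped. Other members moved the other way against Csf1r. Emr1 minus Csf1r differed by -0.29 and Mrc1 minus Csf1r by -0.10, and in both the groups overlapped. Retnla minus C1qc, at -0.17, -0.87 and -0.18 on the Cre+ arrays, against -1.10, -2.17 and -1.56 on the Cre- arrays, differed by 1.21. Retnla was thus set apart from both C1qc and Csf1r without overlap, while for the C1q chains the result depended on which chain and which lineage gene were paired.

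Genes with a pattern close to those of the members were ranked by Pearson correlation over the 6 arrays, among 3659 probe sets with a range of at least 0.5 log2. Those nearest to Retnla were Pds5b (r = 0.984), 1700081L11Rik (0.983), Pdzd8 (0.983), Spcs3 (0.978) and Camta1 (0.974), and 30 candidates exceeded 0.95. Those nearest to the mean of the 3 C1q chains were Myh11 (r = 0.994), Adamts9 (0.988), Rnu2 (0.986), Tef (0.983) and Krt5 (0.983), and 51 exceeded 0.95. Myh11 and Krt5, the genes of smooth muscle myosin and keratin 5, are made by basal myoepithelial cells. Myh11 had intensities of 614, 550 and 589 in Cre+ cells, against 444, 463 and 287 in Cre- cells, so it too was lowest on Cre- 4. These points share the genotype difference and the same 6 preparations, and the correlations are a description.

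The remaining genes of the pathways around the members were examined in 7 lists, with 138 tested genes in all. Of these, 2 rose and 7 fell, where the background shares were 2.03% higher and 2.14% lower. Their median change was 0.02. Across 30 other macrophage markers, all bright enough to be tested, 1 rose, 1 fell and 20 had a change above 0, with a median of 0.04. Pf4, the platelet factor 4 gene that resident macrophages also express, rose by 0.28 (SE 0.06, limma adjusted p = 0.0382), with 30.3, 31.0 and 34.2 in Cre+ cells, against 26.5, 26.3 and 25.7 in Cre- cells. Cd14, the lipopolysaccharide co-receptor, fell by 0.81 (SE 0.18, adjusted p = 0.0493), with 47.2, 47.0 and 49.3 in Cre+ cells, against 64.0, 84.4 and 109 in Cre- cells. Cd14 was highest on Cre- 4, the array where most members were lowest. On the Cre- arrays it had the same order as the summed luminal epithelial markers (4016, 5941 and 6786). On the Cre+ arrays it did not, being highest on Cre+ 7, where that sum was lowest (3883). Which cells made Cd14 was not tested. Lgals3, the galectin 3 gene, had a change of 0.51 (SE 0.14, adjusted p = 0.0817). The Pf4 call was lost with any 1 array left out (adjusted p between 0.0538 and 0.130), and that of Cd14 with any array except Cre- 1 (up to 0.155).

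Other abundant macrophage transcripts also varied within a genotype. Lyz2, the macrophage lysozyme, had intensities of 636, 736 and 941 in Cre+ cells, against 853, 527 and 300.3 in Cre- cells, and Mpeg1, the perforin-2 gene, had 139, 116 and 204 in Cre+ cells, against 165, 118 and 77.0 in Cre- cells. Both were chosen after their values were seen. Neither passed, with changes of 0.57 (SE 0.34) and 0.37 (SE 0.30), and in both the groups overlapped. The summed intensity of the 30 markers was 2433, 2579 and 3724 on the Cre+ arrays, against 3931, 2253 and 1777 on the Cre- arrays. The 2 arrays that stood apart on the second component had the highest sum of their group.

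Of 22 genes of the CSF1 axis and of myeloid transcription factors, 21 were tested and 0 passed in limma (1 at an unadjusted p under 0.05, where the background was 20.0%). Il34, which encodes the other ligand of the Csf1r receptor, had a change of 0.19 (SE 0.06, adjusted p = 0.128). For Tyrobp, the adaptor DAP12 of myeloid receptors, it was 0.51 (SE 0.22, adjusted p = 0.254). Tyrobp passed when Cre- 1 was omitted (adjusted p = 0.0353), and when Cre+ 7 was omitted with it (0.0302). Csf1, named after its values were seen, had intensities of 63.5, 60.7 and 62.7 in Cre+ cells, against 50.8, 58.0 and 63.2 in Cre- cells, and did not pass.

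Of 25 genes of interleukin 4 receptor signalling and alternative activation, 16 were tested, 1 rose and 0 fell, with a median change of 0.00. The gene that rose was Ccl24, an eosinophil-attracting chemokine of alternatively activated macrophages, by 0.22 (SE 0.04, adjusted p = 0.0301), with 28.2, 27.5 and 29.5 in Cre+ cells, against 24.6, 23.9 and 24.7 in Cre- cells. These levels are near the bottom of the range, and the call was lost without any array except Cre- 1 (adjusted p up to 0.116). Il13ra1, a receptor subunit for both cytokines, had a change of 0.39 (SE 0.10, adjusted p = 0.0837). Arg1, the arginase that accompanies Retnla in alternatively activated macrophages, had 22.4, 23.0 and 22.3 in Cre+ cells, against 23.3, 25.0 and 25.5 in Cre- cells, a change of -0.13 (adjusted p = 0.120). Chil3, which encodes Ym1 and is the other common marker of that state, was too dim to test, at 20.8, 20.5 and 20.1 in Cre+ cells, against 20.1, 20.2 and 19.8 in Cre- cells. Il4 was too dim as well, at 21.0 to 21.5 on the Cre+ arrays and 21.3 to 21.4 on the Cre- arrays. Chil3 and Il4 were chosen after their values were seen. Higher Retnla thus went with no detectable Chil3 and no higher Arg1, while Ccl24 was higher. Arg1, like Ccl24, lies near the bottom of the range, where changes are hard to read. Across the list, 8 of the 16 tested genes had a change above 0. Whether macrophages were alternatively activated was not tested.

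Of 21 complement components, 14 were tested, 0 rose and 2 fell. C3, the central component, fell by 0.50 (SE 0.11, adjusted p = 0.0471), with 1168, 1087 and 1218 in Cre+ cells, against 1398, 1806 and 1724 in Cre- cells. Cfb, factor B of the alternative pathway, fell by 0.97 (SE 0.20, adjusted p = 0.0420), with 71.0, 97.3 and 131 in Cre+ cells, against 190, 185 and 192 in Cre- cells. Both lay opposite in direction to C1qb and C1qc, and which cells made them was not tested. The C1q-associated proteases C1ra and C1s1, named after their values were seen, had changes of -0.05 (SE 0.03) and 0.09 (SE 0.10). Among 20 regulators and receptors of complement, 15 were tested and only Clu, the clusterin gene, passed, falling by 0.60 (SE 0.10, adjusted p = 0.0264). Cd55 (-0.70, adjusted p = 0.0948), which dissociates complement convertases, and Lrp1 (0.38, adjusted p = 0.146), a scavenger receptor, did not pass. Calls were lost in 5 of 6 omissions of 1 array for each of C3 (adjusted p up to 0.158), Cfb (up to 0.132) and Clu (up to 0.102). C3 and Clu passed without Cre- 1, and Cfb without Cre+ 7. When Cre+ 5 was omitted, the complement component that passed was Cfd, factor D of the alternative pathway, which was higher (change 1.72, adjusted p = 0.0148).

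Of 23 scavenger, lectin and efferocytosis receptors, which take up debris and dying cells as Cd163 and Mrc1 do, 20 were tested, 0 rose and 2 fell. Cd36, a fatty acid and scavenger receptor, fell by 0.78 (SE 0.15, adjusted p = 0.0337), with 828, 710 and 1085 in Cre+ cells, against 1559, 1487 and 1387 in Cre- cells. Besides macrophages, secretory mammary epithelium and endothelium also make it. Clec7a, the beta-glucan receptor dectin-1, fell by 0.17 (SE 0.03, adjusted p = 0.0290) at intensities between 22.6 and 23.0 in Cre+ cells, against 24.9 to 25.9 in Cre- cells. These Clec7a levels lie close to the dim limit of 22.4, where changes are hard to read. Axl, a receptor for dying cells, had a change of 0.44 (SE 0.12, adjusted p = 0.0873). The Cd36 call held without Cre+ 7 or Cre- 1 only (adjusted p otherwise up to 0.125), and that of Clec7a without Cre- 1 or Cre- 4 only (up to 0.102).

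Relatives of the members in the same gene families were also listed. Of 30 such genes, 23 were tested, 0 rose and 1 fell. Folr1, the epithelial relative of Folr2, fell by 0.75 (SE 0.10, adjusted p = 0.0130), with 68.3, 68.0 and 65.2 in Cre+ cells, against 101, 123 and 116 in Cre- cells. Omitting Cre+ 5 gave an adjusted p of 0.0664, omitting Cre+ 6 one of 0.0665 and omitting Cre- 2 one of 0.0564, so the call did not hold there. C1qtnf1, which encodes a secreted protein with a C1q-like domain, had a change of -0.57 (SE 0.16, adjusted p = 0.0954), and Lamp2, a lysosomal membrane protein of the family of Cd68, one of -0.29 (SE 0.08, adjusted p = 0.100). Retnlg, whose promoter letters resemble those of Retnla, was too dim to test, at 21.6, 21.5 and 21.8 in Cre+ cells, against 22.4, 21.9 and 21.4 in Cre- cells. Retnlb, on the other side of Retnla in the gene order, was too dim as well, at 21.0, 21.6 and 20.7 in Cre+ cells, against 20.8, 19.8 and 20.0 in Cre- cells. Both neighbours are named after their values were seen. Among the 3 adjacent resistin-like genes, only Retnla was above the dim limit.

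**Figure D4:**
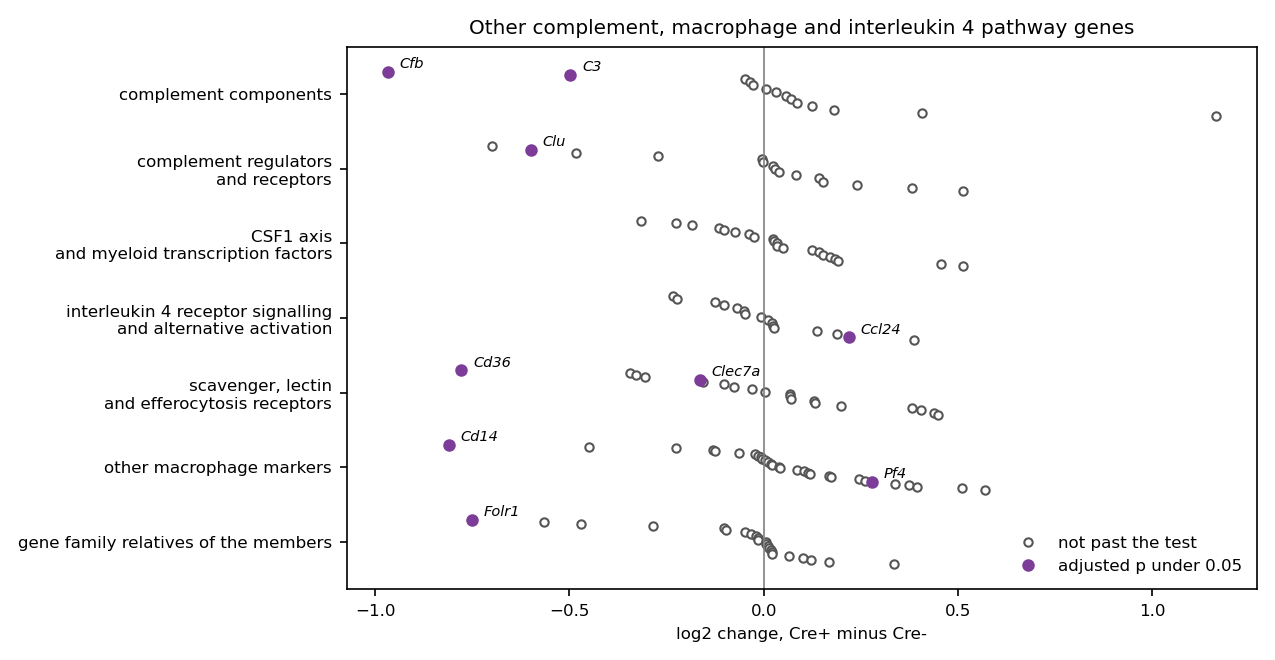
Log2 change, Cre+ minus Cre-, of every tested gene in 7 lists related to the members, 1 row of points per list. Filled, named points passed adjusted p under 0.05. Ccl24 and Pf4 lie right of 0 and the other 7 named genes left of it.

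Markers of other cells moved with genotype or animal, and their part in the member results was not tested. For all the cell lists that follow, the background shares were 2.03% higher, 2.14% lower and 20.0% at an unadjusted p under 0.05 in limma. A change above 0 had a share of 51.6%. Of 15 lymphocyte markers 0 passed in limma (0 also at an unadjusted p under 0.05), and their summed intensity was 456, 737 and 1370 on the Cre+ arrays, against 2190, 670 and 585 on the Cre- arrays. B-cell genes such as Cd79b (change -0.90, SE 0.70), with 373.8 on Cre- 1 and at most 107 on any other array, set that animal apart. Of 13 tested dendritic cell and antigen presentation markers 0 passed (0 unadjusted), with sums of 2023 to 3022 on the Cre+ arrays and 1632 to 4312 on the Cre- arrays. Neutrophil markers summed to 265 to 269 on the Cre+ arrays and 264 to 278 on the Cre- arrays, and 6 of 12 were too dim to test. None of the other 6 passed (0 unadjusted). Of 11 mast cell and eosinophil markers on the array, 8 were too dim and 0 of 3 passed (0 unadjusted), with sums of 438 to 558 on the Cre+ arrays and 491 to 721 on the Cre- arrays, most of it from Kit, which epithelial cells also express.

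Among 8 tested monocyte markers 2 rose, Vcan (1.87, SE 0.10, adjusted p = 0.000945) and Fn1 (0.98, SE 0.21, adjusted p = 0.0496), both matrix genes that fibroblasts also express. The Vcan call held in all 6 omissions and the Fn1 call only without Cre- 1 (up to 0.151 otherwise). The list summed to 463 to 597 on the Cre+ arrays and 269 to 536 on the Cre- arrays. Chil3 was too dim, and F13a1, the factor XIII gene of monocytes and macrophages, did not pass (0.59, SE 0.24, adjusted p = 0.221).

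Several stromal and basal genes rose. Of 11 fibroblast markers all had a change above 0 and 2 passed, Mfap5 (0.75, SE 0.13, adjusted p = 0.0304) and Fbln2 (0.75, SE 0.15, adjusted p = 0.0387), with sums of 1265 to 1639 on the Cre+ arrays and 619 to 1300 on the Cre- arrays. Omitting Cre- 1 raised the number to 7, omitting it with Cre+ 7 raised it to 8, omitting Cre+ 7 alone left it at 2, and each of the other 4 omissions brought it to 0. Of 10 basal myoepithelial markers 4 rose, Trp63 (0.67), Mylk (0.78), Krt17 (0.48) and Acta2 (0.60), where the background was 2.03%. At an unadjusted p under 0.05 in limma were 8 of the 10, and 6 of the 11 fibroblast markers, where the background was 20.0%. The basal sums did not overlap, at 4995 to 5291 in Cre+ cells against 2730 to 4067 in Cre- cells. Without 1 array, 0 to 2 of the basal markers passed, with 0 without Cre+ 5 or Cre+ 6. Cre- 4 had the lowest sum for macrophage, fibroblast and basal markers alike, and the highest for luminal epithelial markers (6786, against 3883 to 5941 on the other arrays). None of the 10 luminal markers passed in limma (2 unadjusted, where the background was 20.0%).

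Of 9 tested adipocyte markers 0 passed (5 at an unadjusted p under 0.05), with sums of 1002, 1475 and 1650 on the Cre+ arrays, against 1093, 872 and 784 on the Cre- arrays. The largest part of these sums was Fabp4, named after its values were seen. It had 540, 638.5 and 824 in Cre+ cells, against 616, 403 and 288 in Cre- cells. Car3, an abundant adipocyte enzyme, had 54.7, 293 and 303 in Cre+ cells, against 38.1, 37.2 and 31.1 in Cre- cells (change 2.26, SE 0.60, adjusted p = 0.0813). Cfd, the adipocyte protease adipsin, had 33.3, 119 and 93.8 in Cre+ cells, against 33.5, 30.2 and 32.8 in Cre- cells (1.16, SE 0.41, adjusted p = 0.169). Both passed when Cre+ 5 was omitted, Car3 with a change of 3.08 (adjusted p = 0.00128) and Cfd with 1.72 (0.0148). Retnla was highest on Cre+ 5, the Cre+ array with the lowest Car3 and Cfd, and lowest of the Cre+ arrays on Cre+ 6, where both were high. On Cre+ 7 all of these genes were high, with Retnla at 167, Car3 at 303 and Cfd at 93.8. A link between Retnla and the adipocyte genes was not tested. Adipoq, the adiponectin gene, was at 22.2 to 26.4 on the Cre+ arrays and 21.3 to 22.2 on the Cre- arrays. Of 11 endothelial markers 10 had a change above 0 and 0 passed (1 unadjusted), with sums of 706 to 977 on the Cre+ arrays and 543 to 933 on the Cre- arrays.

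**Figure D5:**
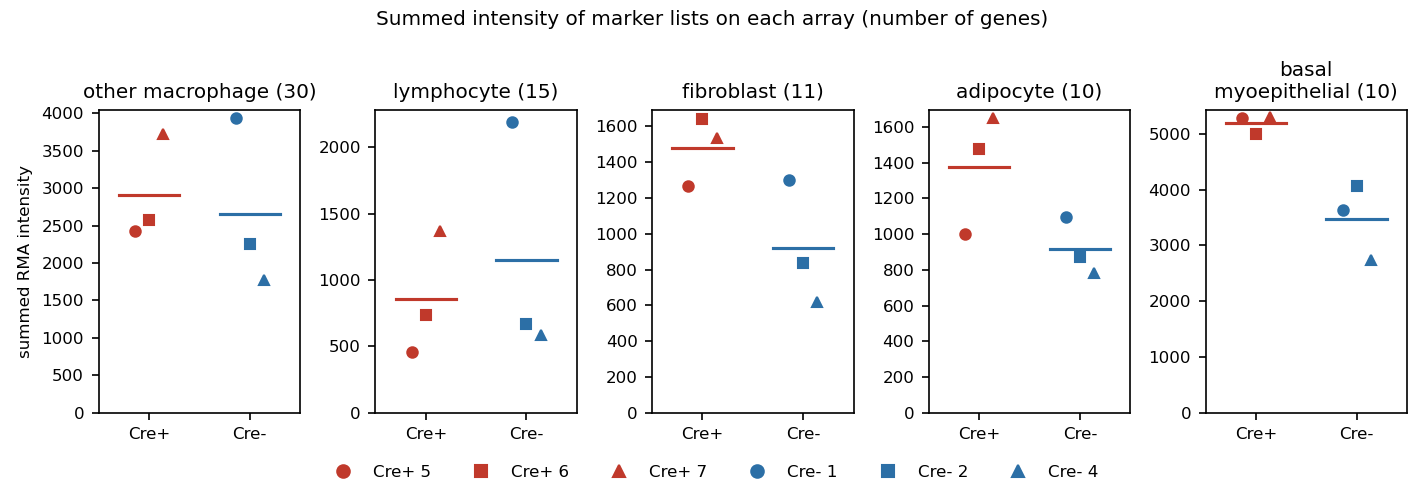
Summed linear RMA intensity of 5 marker lists on each array, with the number of genes in brackets, Cre+ left and Cre- right, a symbol per animal and a line at the group mean. The macrophage and lymphocyte sums overlap between the groups and are highest on Cre- 1, while the basal myoepithelial sums do not overlap.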

How the data were processed

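Cells of 3 Cre+ and 3 Cre- mice were measured on Affymetrix MoGene 1.0 ST arrays, 1 per mouse, grouped by sample title. Per the labels, the authors made the deposited intensity values by RMA of core exons in Expression Console. No source used here gives the version, build or annotation. The values were linear, not log2 as the design had assumed, so log2 was taken first. The deposited ratio carries no direction in its header, and its values equal the Cre+ over the Cre- mean, and the deposited p-value column, which the file headers give beside it, was not used.

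Cre+ minus Cre- was fitted with limma 3.58.1 in R 4.3.3 (intensity trend, two-sided, Benjamini-Hochberg over 16921 probe sets naming 1 gene with a mean at or above the 30th percentile, log2 4.48). Of 22984 probe sets naming 1 gene, 21918 matched a RefSeq symbol or synonym. A gene was represented by its brightest probe set. Replicates are mice, so p-values measure the spread between these mice, and 3 per group limit the precision. On simulated data (16921 probe sets with independent noise), 71% of shifts of 0.5 and 98% of shifts of 1 on the log2 scale were recovered. Of the simulated calls, 8.65% were false. The simulation had no swing shared between probe sets, unlike the real arrays, so these shares need not hold for them.

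The members and the 17 lists were chosen with earlier results of these data known. Named genes are the members, Insr, up to 6 called genes of each list or the 3 of smallest p, and the 5 genes nearest in pattern to Retnla and to C1q. Others are marked as chosen later. A gene that this rule names is not reported here. Alternatives were no intensity filter, 16 subtracted, median centring, other variance models, array weights, other probe set rules and omitted arrays.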

Additional observations from a re-analysis of the deposited data

How the results depend on the processing

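No paired analysis was possible because the 2 genotypes share no animal number. Over all tested probe sets, 706 calls became 1437 with array weights and 46 to 781 with 1 array left out (fewest without Cre+ 5, most without Cre- 1). Without Cre- 1 and Cre+ 7 together there were 954. Member changes stayed within 1 SD in every alternative except with 16 subtracted before log2, where Retnla was 2.71, Cd163 0.47 and Folr2 0.26. Leaving out 1 array gave 1.77 to 2.32 for Retnla, -0.02 to 0.35 for C1qa, 0.54 to 0.77 for C1qb, 0.57 to 0.86 for C1qc, 0.13 to 0.23 for Cd163, 0.05 to 0.36 for Mrc1, -0.01 to 0.55 for Csf1r, -0.09 to 0.19 for Emr1, 0.06 to 0.20 for Folr2 and 0.21 to 0.70 for Cd68. The number of members passing was 3. It was 2 with robust variances, where Retnla did not pass. It was also 2 without the intensity filter or with all probe sets kept, where C1qb did not pass. Without the intensity trend it was 1, Retnla.

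List calls with 1 array left out ranged from 0 to 1 for complement components, for complement regulators and for the CSF1 axis, 0 to 3 for interleukin 4 signalling, scavenger receptors and family relatives, 0 to 2 for other macrophage, adipocyte and basal markers, 1 to 2 for monocyte markers, 0 to 7 for fibroblast markers and 0 to 3 for luminal markers. Complement components had 1 call without the filter or with all probe sets kept and 0 without the intensity trend. Also without the trend, interleukin 4 signalling had 0, scavenger receptors 1 and other macrophage markers 0. Other macrophage markers had 1 call with gene means, median centring or all probe sets kept, and 0 without the filter. Monocyte markers had 1 (Vcan) with 16 subtracted, gene means, no filter, no trend, all probe sets kept or robust variances. Array weights gave 2 calls for complement regulators, 3 for interleukin 4 signalling, 3 for family relatives and 4 for fibroblast markers. Without Cre- 1 and Cre+ 7 together, calls were 3 for complement regulators, 1 for the CSF1 axis (Tyrobp), 0 for interleukin 4 signalling, 4 for family relatives, 1 for mast cell markers (Kit), 8 for fibroblast, 1 for adipocyte (Fabp4, named after its values were seen) and 4 for luminal markers. The causes were not tested. Fewer arrays leave fewer degrees of freedom, but calls over all probe sets rose with some omissions and fell with others. Dim genes, among them Cd163, Folr2, Mrc1 and Emr1, lie close to the array's lowest values, where a real change may be compressed.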
